A study of Mus musculus with 59 samples.

Results

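Prefrontal cortex messenger RNA was compared between wild-type male mouse pups that received fluoxetine and wild-type male pups that received vehicle. The 10 libraries compared, 5 of each group, were taken by their labelled columns from a series of 59 libraries. The rule that chose them also cites the levels of mt-Atp6 and Gm9794, which are therefore given as values without a test. All pups were C57BL/6J, were the wild-type (WT) members of a Myt1l line that also has labelled heterozygotes (HT), and were dissected at postnatal day 25. The drug or vehicle reached them from day 3 to day 24 through the mother's milk, so the dose each pup took in is not known, and litters and dams are not given. P-values here measure only the spread between these samples, and pups of 1 litter may be among them. The other groups set beside these are WT females (4 fluoxetine and 5 vehicle libraries), HT males (5 and 5) and WT males given lithium (5).

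Fluoxetine blocks the serotonin transporter, which takes released serotonin back into the axon. Serotonin fibres reach the prefrontal cortex from the raphe nuclei of the brainstem, where the transporter gene and the serotonin-making enzyme are mainly expressed. Cortical cells respond through several receptor families, most of them coupled to G proteins, with an ion channel as the exception. In early postnatal life serotonin also shapes the growth of cortical circuits, and the drug passes into milk.

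The 10 libraries held 26056201 to 34162299 recovered reads each, and no pair of libraries was identical. Within each group the log2 values of any pair of libraries correlated across genes at 0.9829 to 0.9901. Ddx3y, a Y-linked gene, stood between 1535 and 1951 normalized counts in all 10, and Xist between 1.14 and 5.61, as the male label requires. Myt1l ranged from 6619 to 7956 normalized counts with fluoxetine and from 6736 to 7100 with vehicle, a log2 difference of 0.08 (SE 0.0889, limma adjusted p = 0.972). Cortical excitatory markers were high in every library, at a sum of 83160 to 109445 normalized counts over the list. mt-Atp6, a mitochondrial ATP synthase subunit, ranged from 41613 to 52893 normalized counts with fluoxetine and from 40775 to 70728 with vehicle. Gm9794, a processed pseudogene, ranged from 107 to 145 and from 103 to 149.

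No gene passed the test between fluoxetine and vehicle. Limma, with Benjamini-Hochberg adjustment at 0.05, called 0 of 16546 genes (0.00%), and the smallest adjusted p was 0.319. An unadjusted p under 0.05 was reached by 800 genes (4.84%), of which 420 were higher with fluoxetine (2.54%) and 380 lower (2.30%). EdgeR's quasi-likelihood test and DESeq2's Wald test on the recovered reads also called 0 genes, with 813 and 838 under an unadjusted 0.05. The 5 fluoxetine values lay wholly above the 5 vehicle values in 99 genes (0.598%) and wholly below in 96 (0.580%). A fit to the 10 libraries alone called 3 genes (0.0181%), namely Rpl14-ps1 as higher and Nr1d1 and mt-Nd6 as lower.

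The precision of the comparison bounds the differences that it leaves possible. With the spread shared over all 12 groups, the median SE of a log2 difference was 0.112. The median half-width of its 95% confidence interval was 0.226. For 13125 genes (79.3%) the whole interval lay inside a 1.5-fold difference in either direction, and for 15633 (94.5%) inside 2-fold. Among the 5852 genes with a mean of at least 1000 normalized counts, 97.7% had an interval inside 1.5-fold. These intervals are per gene and carry no adjustment for the number of genes. The median log2 difference over all tested genes was 0.00, with 8179 genes above 0 and 8367 below.

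The 10 genes with the smallest p did not pass, and 7 of them were lower with fluoxetine. Because they were picked by their p in this contrast, separation of their groups follows largely from the choice. Cpeb1, which controls polyadenylation and translation of messages at synapses (chr7:81347026-81455465, GRCm38), headed the list. Its normalized counts were 1154, 1415, 1191, 1193 and 1281 with fluoxetine against 1713, 1766, 1510, 1709 and 1466 with vehicle. All 5 fluoxetine libraries lay below all 5 vehicle libraries, and the log2 difference was -0.39 (SE 0.0852, limma adjusted p = 0.319). Over the alternatives the adjusted p of Cpeb1 ran from 0.0904, with DESeq2, to 1.

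**Figure D1:**
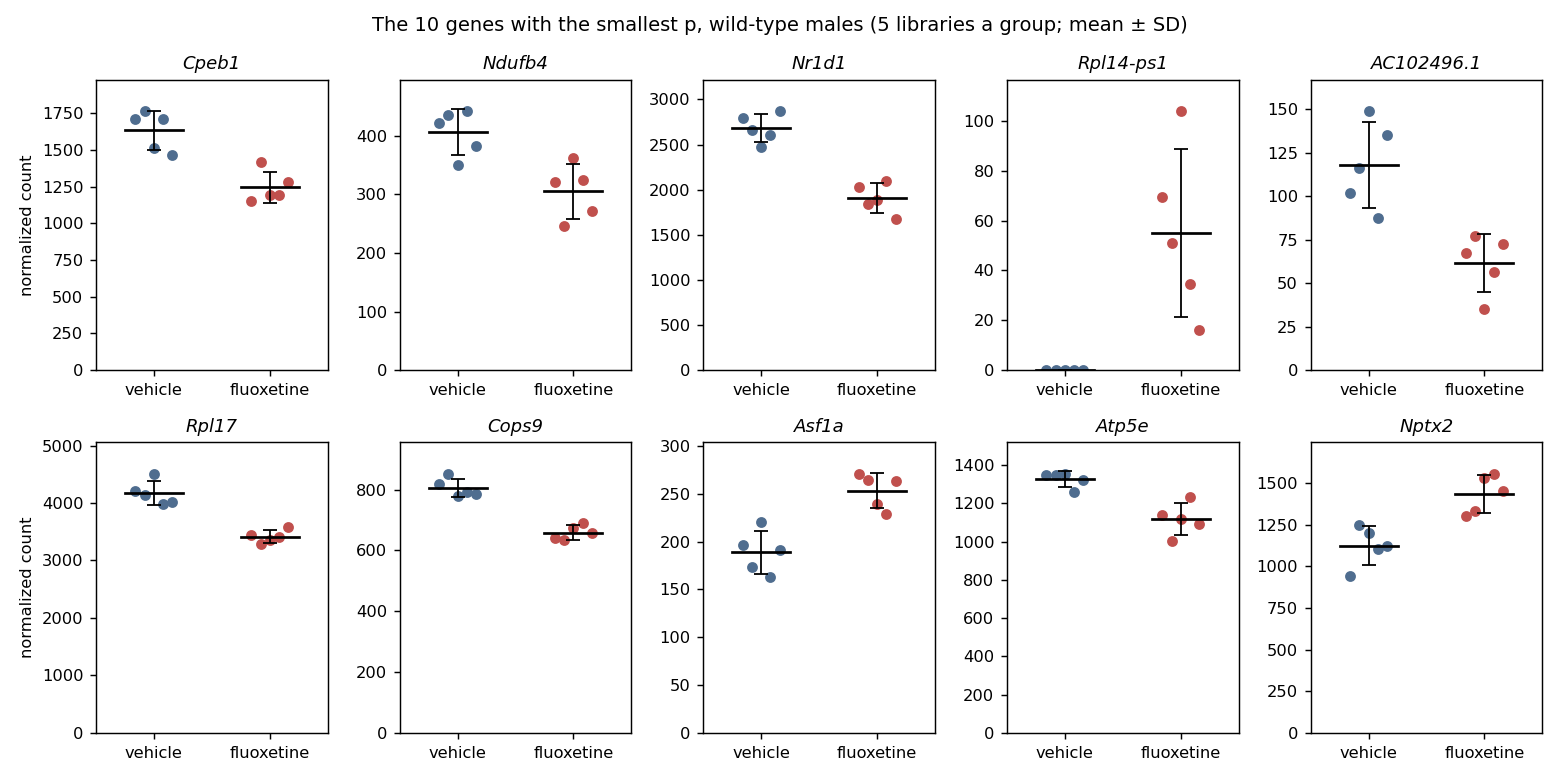
Normalized counts (y axis, from 0) in the 5 vehicle (blue) and 5 fluoxetine (red) libraries for the 10 genes with the smallest p, with the mean and SD in black. The groups did not overlap in 9 of the 10 panels, Ndufb4 being the exception, and none of the 10 passed the test over all genes. Over all genes the groups did not overlap in 0.598% (higher) and 0.580% (lower). The 10 were picked by their p in this contrast, so nothing is read from their separation.

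Nr1d1, which encodes the clock repressor REV-ERB alpha (chr11:98767932-98775333), stood at 2029, 1842, 1890, 2096 and 1677 normalized counts with fluoxetine. The vehicle libraries gave 2800, 2657, 2478, 2605 and 2874. The groups were separated, with means of 1907 ± 164 and 2683 ± 157 (SD, n = 5 each). The log2 difference was -0.49 (95% interval -0.72 to -0.26, limma adjusted p = 0.342). In the fit to the 10 libraries alone its adjusted p was 0.0235, the lowest of its alternatives, which ran up to 1.

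Ndufb4, a subunit of respiratory complex I (chr16:37647170-37654453), had 321, 245, 362, 324 and 271 normalized counts with fluoxetine against 421, 435, 350, 442 and 382 (log2 difference -0.42, SE 0.0938, limma adjusted p = 0.319). The highest fluoxetine library overlapped the lowest vehicle library. Atp5e, the epsilon subunit of mitochondrial ATP synthase (chr2:174461072-174464105), had 1139, 1001, 1117, 1234 and 1093 against 1351, 1350, 1356, 1261 and 1320. Every fluoxetine value of Atp5e was below every vehicle value, at a log2 difference of -0.25 (SE 0.0699). Rpl17, a protein of the large ribosomal subunit, had 3442, 3292, 3357, 3404 and 3587 against 4213, 4139, 4512, 3983 and 4024. The log2 difference of Rpl17 was -0.29 (SE 0.0783), again with no overlap. Cops9, a small subunit of the COP9 signalosome that trims NEDD8 from cullin ubiquitin ligases (chr1:92637145-92641985), had 642, 633, 673, 691 and 656 against 820, 853, 779, 791 and 787. Its log2 difference was -0.29 (SE 0.0789), and within each group its values were close together.

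Another pair was non-coding by annotation and had low counts. AC102496.1, a long intergenic RNA, had 67.6, 77.1, 35.2, 56.5 and 72.5 normalized counts with fluoxetine against 102, 116, 149, 87.7 and 135 (log2 difference -0.94, SE 0.235). Rpl14-ps1, a processed pseudogene of the ribosomal protein gene Rpl14 (chr7:45324965-45325617), was present with fluoxetine and at 0 in all 5 vehicle libraries. Its fluoxetine values were 69.4, 51.1, 104, 34.7 and 16.2 normalized counts, from 17 to 109 reads per library. Against an assumed floor of 3 reads per vehicle library the fluoxetine mean of 55.0 ± 33.5 was 17.7-fold higher. The fitted log2 difference was 5.56 with a 95% interval of 2.96 to 8.16 and a limma adjusted p of 0.342. Reads of such a copy can be divided with its parent, and Rpl14 itself differed by 0.05 on the log2 scale (95% interval -0.10 to 0.20). In the fit to the 10 libraries alone the adjusted p of Rpl14-ps1 was 6.56e-05, and its alternatives ran up to 1. The pseudogene was at 0 also in all 5 HT vehicle males and in 4 of 5 WT vehicle females. In HT vehicle females only 3 of 5 were at 0, with a mean of 16.8 ± 23.7 normalized counts (SD, n = 5) and a highest value of 49.96. Among the lithium groups, 2 of 5 WT males were at 0 and the highest of them reached 53.2.

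The remaining 2 genes were higher with fluoxetine. Nptx2, a secreted neuronal pentraxin that clusters AMPA receptors and is induced by activity (chr5:144545902-144557478), had 1302, 1330, 1528, 1557 and 1453 normalized counts against 939, 1246, 1200, 1105 and 1123. The lowest fluoxetine library exceeded the highest vehicle library, and the log2 difference was 0.36 (SE 0.0991, limma adjusted p = 0.942). Asf1a, a chaperone of histones H3 and H4 (chr10:53596757-53609225), had 271, 264, 239, 229 and 263 against 196, 173, 220, 163 and 191. The log2 difference of Asf1a was 0.43 (SE 0.118), without overlap.

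Genes of the circadian clock were described as a list. In the clock, CLOCK and ARNTL bind E-boxes and drive the Per and Cry repressors, the nuclear receptors Nr1d1 and Nr1d2, and the PAR-bZIP output factors Dbp, Tef and Hlf. Their messages cycle over the day, and the hour of dissection is not given in the labels. Of 19 measured members, 0 were called, 15 were below 0 and 4 above. The median log2 difference was -0.13, against 0.00 over all genes. Members under an unadjusted p of 0.05 numbered 6, all lower, against 2.30% of all genes, and the groups did not overlap, all lower, in 3 against 0.580%.

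The 250 bases before the RefSeq transcript starts of Ciart, Tef and Nr1d1, 3 genes of this list, are shown. They differ in the E-box letters that CLOCK and ARNTL bind. They are RefSeq sequences of GRCm38.p6, written 5′ to 3′ on the gene's strand, with each E-box (CACGTG, which reads the same on both strands) in capitals. Ciart, whose product represses CLOCK and ARNTL, has 3 E-boxes at chr3:95882229-95882478 (minus strand). Tef has 1 in each of its windows, at chr15:81802423-81802672 and chr15:81811164-81811413 (plus strand). These windows lie inside the GENCODE span of Tef, chr15:81802421-81826863. The window of Nr1d1, at chr11:98775378-98775627 (minus strand), holds none of these letters.
Ciart: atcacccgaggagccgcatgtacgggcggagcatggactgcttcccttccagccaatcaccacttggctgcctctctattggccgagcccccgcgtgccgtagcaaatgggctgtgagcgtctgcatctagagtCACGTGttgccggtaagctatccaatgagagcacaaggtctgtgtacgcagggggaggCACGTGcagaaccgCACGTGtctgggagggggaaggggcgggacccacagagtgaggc
Tef, upstream window: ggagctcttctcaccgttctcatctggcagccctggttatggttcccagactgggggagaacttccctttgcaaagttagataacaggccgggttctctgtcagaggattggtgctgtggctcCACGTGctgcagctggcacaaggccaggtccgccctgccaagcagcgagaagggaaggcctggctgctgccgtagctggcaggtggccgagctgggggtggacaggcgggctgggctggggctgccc
Tef, downstream window: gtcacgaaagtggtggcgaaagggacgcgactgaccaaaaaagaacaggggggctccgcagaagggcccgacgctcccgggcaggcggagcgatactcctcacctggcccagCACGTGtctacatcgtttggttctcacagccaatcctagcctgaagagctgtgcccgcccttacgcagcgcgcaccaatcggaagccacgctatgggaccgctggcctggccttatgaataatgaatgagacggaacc
Nr1d1: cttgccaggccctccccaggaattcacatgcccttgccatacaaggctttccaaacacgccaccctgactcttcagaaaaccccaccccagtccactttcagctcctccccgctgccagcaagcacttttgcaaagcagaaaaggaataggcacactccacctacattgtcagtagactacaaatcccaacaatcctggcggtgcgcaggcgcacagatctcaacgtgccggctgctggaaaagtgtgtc

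Over the full 300-base windows, the E-box letters were present for 5 of the 17 clock genes with a window (29.4%). Among all genes with a window, 8.09% of 27025 held them, and among tested genes 11.2% of 12058. For the genes under an unadjusted p of 0.05 the share was 9.97% of 311 higher and 10.7% of 280 lower genes. The cyclic AMP response element TGACGTCA was present for 2.57% of those higher and 3.21% of those lower genes, against 3.40% of tested genes. The AP-1 letters TGACTCA or TGAGTCA were present for 4.82% and 4.29%, against 4.42%, and the GC-box GGGCGG for 66.9% and 61.1%, against 66.1%. Both strands were searched, and a gene counted once if any of its windows matched.

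Besides Nr1d1, both other clock genes without overlap were output factors. Tef had 9450, 8614, 9798, 9283 and 9316 normalized counts with fluoxetine against 10547, 10661, 10285, 9943 and 9981, a log2 difference of -0.15 (SE 0.0567). Dbp had 1533, 1339, 1499, 1548 and 1552 against 1968, 1872, 1636, 1829 and 1702, a log2 difference of -0.27 (SE 0.119). Fluoxetine libraries of both genes thus sat just under the vehicle range. Ciart overlapped, at 440, 309, 303, 403 and 348 against 465, 479, 397, 398 and 418 (log2 difference -0.27, SE 0.123). The limma adjusted p was 0.942 for Tef, Dbp and Ciart alike. Bhlhe40, a repressor of the clock, was at -0.24 and Hlf at -0.19. The activators Arntl and Clock were at 0.04 and 0.03, and the repressors Per1, Per2 and Cry1 at -0.16, -0.10 and 0.10. The summed level of the list was 40137 to 43055 normalized counts with fluoxetine and 45183 to 49035 with vehicle. With the bulb covariate the median was -0.07 with 1 member under an unadjusted p of 0.05, and without the 5 libraries highest in bulb genes it was -0.14.

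**Figure D2:**
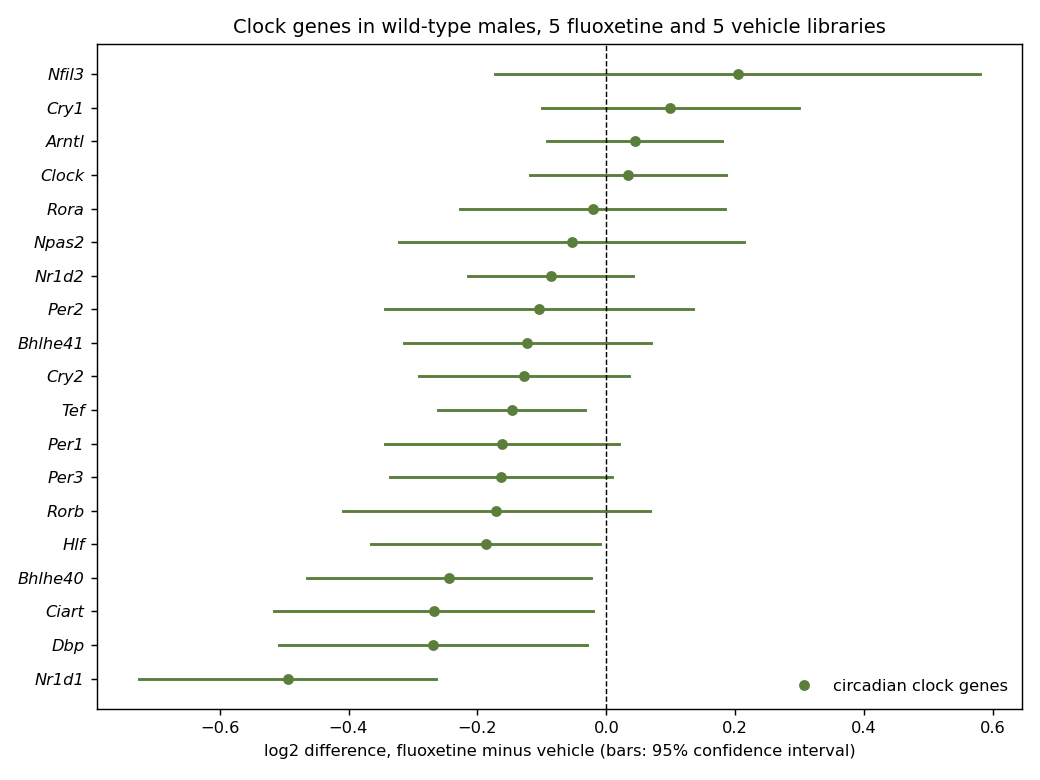
Log2 difference between fluoxetine and vehicle (x axis) with its 95% confidence interval for the 19 clock genes in wild-type males, sorted by value. Nr1d1 is the lowest at -0.49 and Nfil3 the highest at 0.20, and 15 of the 19 points lie left of 0.

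Serotonin receptors, the proteins through which a change in extracellular serotonin would be read, showed no called member. Of 12 measured receptors, 6 were above 0 and 6 below, with a median log2 difference of 0.06 and none under an unadjusted p of 0.05. Htr2a, the main excitatory receptor of cortical pyramidal neurons, had 1883, 1614, 1777, 1757 and 1560 normalized counts with fluoxetine against 1863, 1904, 1558, 1780 and 1647. Its log2 difference was -0.03 with a 95% interval of -0.30 to 0.25. Htr1a, the inhibitory receptor that also serves as autoreceptor in the raphe, had 679, 524, 670, 813 and 534 against 629, 663, 697, 689 and 657. The interval of Htr1a, -0.42 to 0.28, included 0, as did those of the other 11 receptors.

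The widest intervals belonged to receptors with few counts or uneven levels. Htr1d ran from 40.9 to 90.2 normalized counts with fluoxetine and from 7.0 to 100 with vehicle, and its log2 difference of 0.65 had an interval of -0.32 to 1.62. Htr2c, a receptor coupled to Gq, ran from 1019 to 2209 and from 810 to 1916, with an interval of -0.67 to 0.90. The remaining receptors lay between -0.27 (Htr4, which raises cyclic AMP) and 0.42 (Htr5b). Htr1f and Htr5b were the next largest above 0, at 0.29 and 0.42, with intervals of -0.09 to 0.67 and -0.18 to 1.03. Htr7 was at 0.14, Htr3a (the ion channel subunit) at 0.12, Htr5a at -0.12, Htr6 at -0.10 and Htr1b at 0.00.

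Of 11 genes of monoamine transport and metabolism, 0 were called, and the median log2 difference was -0.02. Slc6a4, the transporter that the drug blocks, was not analysed here. The enzymes that break down serotonin stayed close to 0: Maoa was at -0.02 (95% interval -0.19 to 0.16) and Maob at -0.05 (-0.27 to 0.16). Tph1, an enzyme of serotonin synthesis, had only 17.8 to 40.0 normalized counts with fluoxetine and 17.4 to 53.4 with vehicle (log2 difference -0.46, interval -1.22 to 0.30).

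The 3 members of that list under an unadjusted p of 0.05 were all higher. Slc29a4, a low-affinity monoamine transporter of the plasma membrane, had 492, 582, 503, 608 and 595 normalized counts against 471, 494, 462, 428 and 409 (log2 difference 0.29, SE 0.119). Slc18a2, the vesicular monoamine transporter, had 29.4, 96.6, 20.9, 18.8 and 58.2 against 5.81, 4.38, 20.7, 3.42 and 36.4. Within their groups, fluoxetine libraries 1, 2 and 5 and vehicle libraries 3 and 5 were the high ones for Slc18a2. Slc6a3, the dopamine transporter, had 35.6, 77.1, 25.7, 23.8 and 62.9 against 14.5, 4.38, 30.5, 22.8 and 26.5. With the olfactory bulb level described below as a covariate, the log2 difference went from 1.84 to 0.57 for Slc18a2, from 1.23 to 0.14 for Slc6a3 and from 0.29 to 0.23 for Slc29a4. Without the 5 libraries highest in bulb genes, also described below, the differences were 1.94, 1.03 and 0.25 in the same order.

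The libraries high for Slc18a2 were also the ones with most message of the olfactory bulb, which borders the frontal cortex. The bulb list holds transcription factors of its projection neurons (Eomes, Tbx21), genes of sensory axons (Omp, S100a5), the catecholamine enzyme Th of its interneurons and others. Its summed level was 2052, 7519, 1078, 1120 and 5715 normalized counts in fluoxetine libraries 1 to 5, and 220, 115, 2571, 330 and 3147 in vehicle libraries 1 to 5. The groups overlapped, but 3 vehicle libraries lay far below all others. All 8 members were above 0, 0 were called and the median log2 difference was 2.19. Members under an unadjusted p of 0.05 numbered 5, against 2.54% higher among all genes. Eomes had 226, 826, 86.5, 38.6 and 684 normalized counts with fluoxetine against 5.81, 1.75, 235, 1.14 and 328, and Omp had 178, 245, 26.6, 11.9 and 274 against 16.5, 8.75, 30.5, 7.97 and 34.2. No defining marker of the list was at 0 in all 10 libraries. In bulk tissue, more cells of a type and more RNA per cell cannot be told apart.

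**Figure D3:**
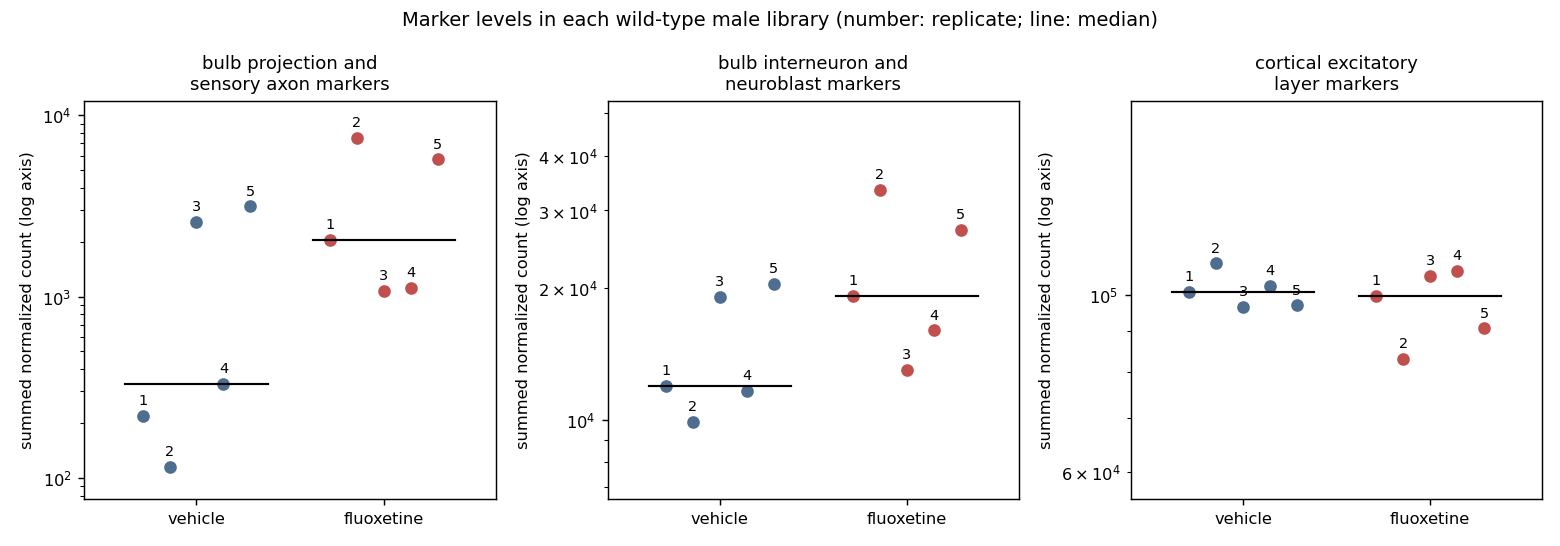
Summed normalized count (y axis, log scale) of 3 marker lists in each wild-type male library, numbered by replicate, with the group median as a line. Bulb markers run from 115 to 7519, with fluoxetine 2 and 5 highest and vehicle 1 and 2 lowest, while cortical markers stay between 83160 and 109445.

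Markers of bulb interneurons and migrating neuroblasts moved with them. All 16 were above 0, 0 were called, and the median was 0.70. The summed level was 12956 to 33372 normalized counts with fluoxetine and 9885 to 20417 with vehicle. Dlx6, a homeobox gene of GABAergic precursors, had 131, 217, 97.9, 112 and 186 normalized counts against 60.1, 77.9, 128, 77.5 and 117 (log2 difference 0.68, SE 0.279). Dlx6os1, the antisense transcript of that locus, differed by 0.71 (SE 0.351), and counting by strand is not recorded for these values. With the bulb level as a covariate, the median of the bulb list went to -0.20, that of the neuroblast list to -0.16 and Dlx6os1 to -0.03. The covariate is the mean standardized level of the same 8 bulb genes. The fall of the bulb list median therefore follows from its construction and is no result. That covariate lowered the number of genes under an unadjusted p of 0.05 from 800 to 503, and 0 were called. An alternative chosen after the values were seen left out the 5 libraries highest in bulb genes (fluoxetine 1, 2 and 5, vehicle 3 and 5). This alternative called 0 genes, with 609 under an unadjusted 0.05, a bulb median of 2.27 and a neuroblast median of 0.51. It kept only fluoxetine libraries 3 and 4 and vehicle libraries 1, 2 and 4. Their summed bulb levels were 1078 and 1120 against 220, 115 and 330, so it did not balance the bulb level between the groups. The bulb level cannot be separated from the drug wholly, since 4 of the 5 fluoxetine libraries had a standardized level above 0 and 3 of the 5 vehicle libraries one below -0.9.

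**Figure D4:**
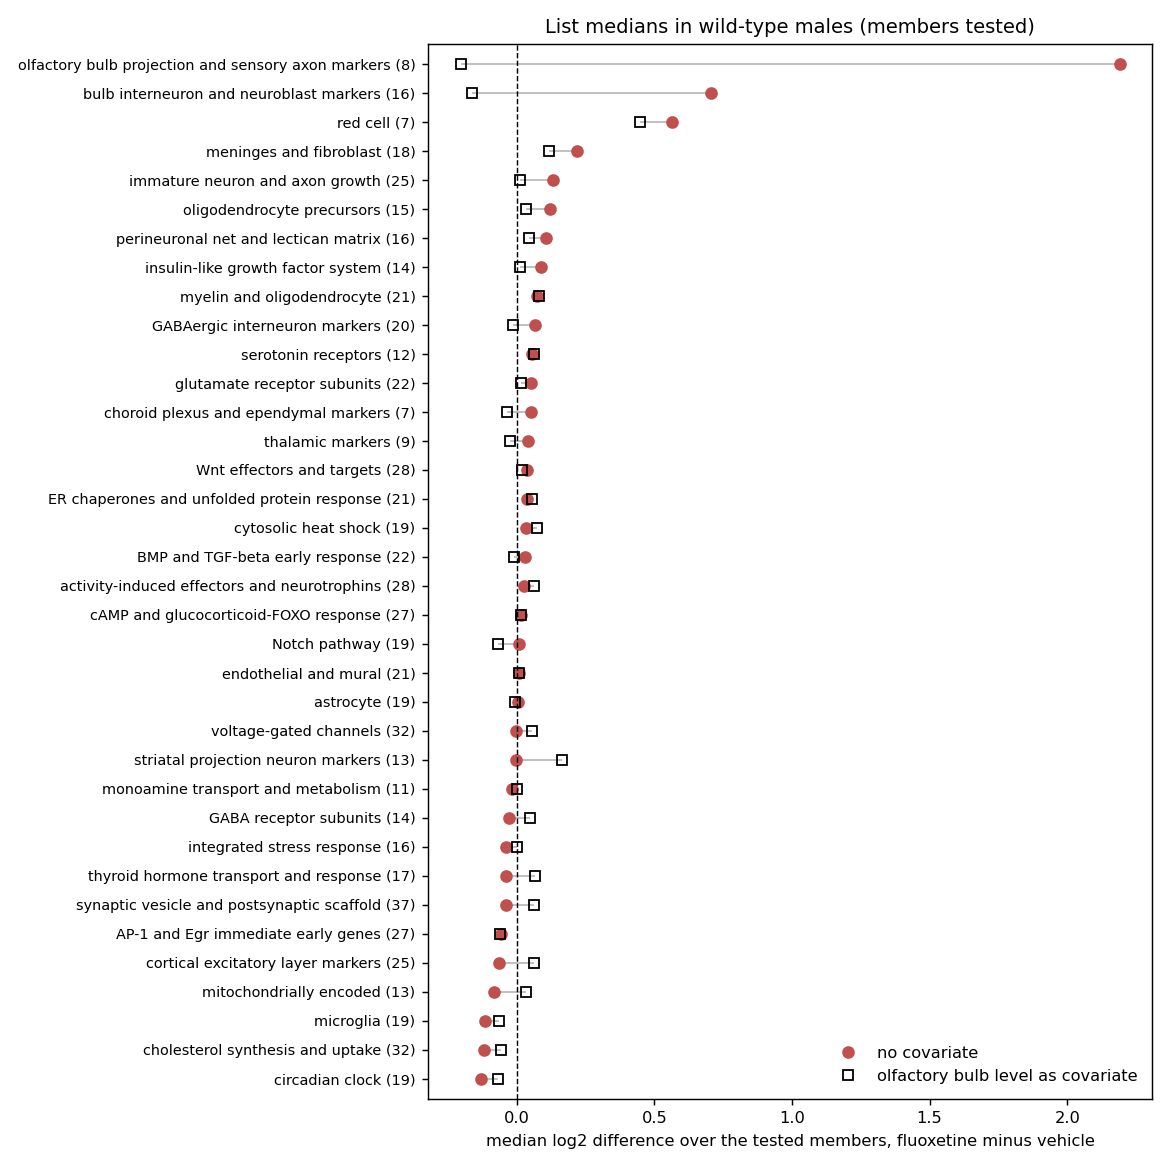
Median log2 difference over the tested members of each gene list (x axis), without a covariate (red) and with the olfactory bulb level as a covariate (open squares), with the number of members in brackets. The 2 bulb lists stand at 2.19 and 0.70 and go to -0.20 and -0.16, and the other medians lie between -0.13 and 0.56. The covariate is built from the genes of the list at 2.19, so the fall of that list follows from its construction.

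Markers of immature neurons, 25 genes, were above 0 in 22. Their median of 0.13 went to 0.01 with the bulb covariate and to 0.20 without the 5 libraries highest in bulb genes. Marcksl1, an actin-binding protein of growing neurons, had 7114, 6975, 6151, 8238 and 7727 normalized counts against 6099, 5772, 6442, 6396 and 5756 (log2 difference 0.24, SE 0.112). Sox4, a transcription factor of early neurons, was at 0.47 and went to -0.07 with the bulb covariate. Several growth factor and signalling genes also moved with it. Igf1 went from 0.53 to 0.06, Wnt5a from 0.51 to 0.09, Hey2 (a Notch target) from 0.59 to 0.13 and Lgr5 (a receptor of the Wnt pathway) from 1.29 to -0.22. Without the 5 libraries highest in bulb genes, Sox4 was at 0.36, Igf1 at 0.16, Wnt5a at 0.17, Hey2 at 0.04 and Lgr5 at 1.28. Striatal projection neuron markers had a median of 0.00 over 13 genes, and cortical excitatory layer markers -0.06 over 25, with 0 called in each. Layer-associated Syt6, at 922, 2026, 744, 785 and 1481 normalized counts against 431, 374, 1289, 548 and 1344, was high in the bulb-high libraries. Its log2 difference of 0.68 went to -0.17 with the covariate and to 0.78 without the 5 libraries highest in bulb genes.

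Activity-dependent genes are induced by neuronal firing and calcium entry. The AP-1 and Egr family list, 27 genes, had 13 above 0, 14 below and a median of -0.06, with 0 called. Its 3 members under an unadjusted p of 0.05 were Fosl2, Fosb and Atf3, all higher, where 2.54% of all genes were. Fosb, a component of AP-1 that accumulates with repeated stimulation, had 423, 540, 292, 479 and 753 normalized counts against 246, 196, 538, 290 and 431 (log2 difference 0.58, SE 0.279). Fosl2 had 1132, 1655, 1038, 1463 and 2090 against 817, 580, 1646, 929 and 1131 (log2 difference 0.57, SE 0.236). The high vehicle library of both genes, vehicle 3, was also high in bulb genes. With the bulb covariate the differences were 0.12 for Fosb and 0.18 for Fosl2. Without the 5 libraries highest in bulb genes they were 0.63 and 0.69. Npas4, a neuron-specific activity factor, was the lowest of the list at -0.32. Effectors and neurotrophins downstream of activity, 28 genes, had a median of 0.03, and Nptx2, described above, kept 0.37 with the covariate.

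Cyclic AMP and glucocorticoid-FOXO response genes, 27 in number, had a median of 0.02. Cdkn1a, a cell cycle inhibitor that FOXO factors and p53 induce, had 1303, 1574, 1079, 1186 and 1487 normalized counts against 684, 951, 973, 801 and 1172 (log2 difference 0.54, SE 0.180, limma adjusted p = 0.942). Only vehicle library 5 reached into the fluoxetine range of Cdkn1a. Its log2 difference was 0.26 with the bulb covariate and 0.49 without the 5 libraries highest in bulb genes. Cebpb, a stress-responsive transcription factor, had 86.3, 65.0, 74.1, 108 and 72.5 against 61.0, 56.0, 49.0, 79.7 and 40.8 (log2 difference 0.51, SE 0.201).

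Ribosomal and respiratory genes were gathered into 2 lists after the values were seen, because several stood among the smallest p. The counts of these lists follow in part from that choice, so nothing is read from their excess over the shares of all genes. Of 82 cytosolic ribosomal protein genes, 65 were below 0 and 17 above, with a median of -0.06 and 0 called. Under an unadjusted p of 0.05 were 12, all lower, where 2.30% of all genes were. The values of 8 did not overlap, all lower, where 0.580% of all genes did not. Rpl9 had 3690, 3401, 3199, 3683 and 3628 normalized counts with fluoxetine against 4229, 4251, 4244, 4136 and 4197, and Rpl13a had 4099, 3819, 3675, 4252 and 4232 against 4880, 4994, 5307, 4797 and 4596. Both had a gap between the groups, at log2 differences of -0.26 and -0.29. The list ran from -0.44 (Rps27) to 0.26 (Rpl13), and processed copies elsewhere in the genome can take a share of these reads.

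Of 80 nuclear-encoded subunits of oxidative phosphorylation, 62 were below 0, with a median of -0.07 and 0 called. Under an unadjusted p of 0.05 were 8 lower and 1 higher, where 2.30% and 2.54% of all genes were. Ndufa4, a subunit associated with cytochrome oxidase, had 4706, 4157, 4675, 5087 and 4511 normalized counts against 5375, 5588, 5828, 5331 and 5136 (log2 difference -0.24, SE 0.0733). Cox5a, another subunit of that complex, went the other way at 0.24 (SE 0.0991). With the bulb covariate the median was -0.01 for the oxidative phosphorylation list and -0.06 for the ribosomal list, and without the 5 libraries highest in bulb genes 0.01 and -0.02. For fluoxetine against vehicle in WT females the medians were -0.02 and 0.08 in the same order, and in HT males -0.05 and 0.00.

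Transcripts of the mitochondrial genome, 13 in number, took 6.62 to 7.66% of normalized counts with fluoxetine and 7.07 to 8.37% with vehicle. Their median was -0.08 and 0 were called. mt-Nd6, a subunit of complex I encoded on the opposite strand from the other mitochondrial protein genes, had 970, 838, 1329, 931 and 1098 normalized counts against 1583, 1599, 1724, 1693 and 1865. No values of mt-Nd6 overlapped, and the log2 difference was -0.73 (SE 0.276, limma adjusted p = 0.942). Its adjusted p in the fit to the 10 libraries alone was 0.0381, and the alternatives ran from 0.0318 to 1. mt-Co3 varied widely in the fluoxetine group, at 29175, 8431, 51504, 15904 and 48549 against 36563, 38615, 49182, 55291 and 38492, so its difference of -0.78 had an interval of -2.0 to 0.43.

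Cholesterol synthesis in the young brain serves myelin and synapse growth. Of 32 genes of synthesis and uptake, 28 were below 0 and 4 above, with a median of -0.12 and 0 called. Members under an unadjusted p of 0.05 numbered 5, all lower, against 2.30% of all genes. Acat2, which condenses acetyl-CoA at the first step, had 1183, 1074, 1124, 1197 and 1117 normalized counts against 1257, 1223, 1408, 1284 and 1267 (log2 difference -0.18, SE 0.0735), without overlap. Stard4, a cholesterol carrier, was at -0.15, Fdft1 (squalene synthase) at -0.18 and Msmo1 (a sterol demethylase) at -0.24. With the bulb covariate the median was -0.06 with 0 members under an unadjusted 0.05, and without the 5 libraries highest in bulb genes it was -0.05.

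Microglial markers, 19 genes of the resident immune cells, had 15 below 0, a median of -0.11 and 0 called. Trem2, a lipid-sensing receptor, had 272, 241, 258, 223 and 260 normalized counts against 311, 298, 262, 371 and 327 (log2 difference -0.32, SE 0.106, limma adjusted p = 0.942). Fluoxetine library 4 was the lowest of its group for Trem2, and fluoxetine library 1 and vehicle library 3 brought the groups into overlap. The summed level of the list was 13550 to 17187 with fluoxetine and 16905 to 17242 with vehicle, and the median was -0.06 with the bulb covariate and -0.18 without the 5 bulb-high libraries.

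Astrocyte markers had a median of 0.00 over 19 genes, myelin and oligodendrocyte markers 0.07 over 21, oligodendrocyte precursors 0.12 over 15, endothelial and mural markers 0.01 over 21, and GABAergic interneuron markers 0.07 over 20, with 0 called in each. The myelin list was above 0 in 18 of 21, in 21 with the bulb covariate, and its median was 0.31 without the 5 libraries highest in bulb genes. Gfap, the astrocyte filament protein, was at 0.27 and went to -0.01 with the bulb covariate. Elfn1, a synaptic adhesion protein of somatostatin interneurons, had 977, 1069, 1070, 988 and 977 normalized counts against 808, 924, 948, 835 and 867, with no overlap and a log2 difference of 0.21 (SE 0.0847). Meninges and fibroblast markers were above 0 in 17 of 18, with a median of 0.22. That median was 0.12 with the bulb covariate and -0.17 without the 5 libraries highest in bulb genes. Red cell genes had a median of 0.56 over 7, which was 0.45 with the bulb covariate and 0.26 without the 5 libraries highest in bulb genes. Their summed level was 19485 to 30154 with fluoxetine and 17544 to 21719 with vehicle. Hba-a2, an alpha globin with a near-identical copy, had 2377, 6244, 4876, 2957 and 5058 normalized counts against 3165, 2587, 1657, 3318 and 2587 (log2 difference 0.64, SE 0.276). Its difference was 0.56 with the bulb covariate and 0.34 without those 5 libraries.

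Genes of synaptic transmission differed little. Synaptic vesicle and scaffold genes had a median of -0.04 over 37, voltage-gated channels 0.00 over 32, glutamate receptor subunits 0.05 over 22 and GABA receptor subunits -0.03 over 14, with 0 called in each. Nrxn2, a presynaptic adhesion protein, had 12248, 12521, 14453, 14510 and 12195 normalized counts against 10674, 11216, 11186, 12649 and 9465 (log2 difference 0.26, SE 0.0997). Nlgn3, a postsynaptic adhesion protein, was at -0.27 (SE 0.106), at -0.21 with the bulb covariate and at -0.09 without the 5 libraries highest in bulb genes. The perineuronal net list, extracellular matrix that matures around interneurons at this age, had a median of 0.11 over 16 genes. Adamts5, a protease of that matrix, was at 0.61. It went to 0.17 with the bulb covariate and to 0.38 without the 5 libraries highest in bulb genes.

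Stress and growth lists were also near 0. ER chaperones had a median of 0.04 over 21 genes, cytosolic heat shock genes 0.04 over 19, the integrated stress response -0.04 over 16, Notch pathway genes 0.01 over 19, Wnt effectors 0.04 over 28, BMP and TGF-beta response genes 0.03 over 22, insulin-like growth factor genes 0.09 over 14 and thyroid hormone genes -0.04 over 17, with 0 called in each. Hsp90b1, an ER chaperone, had 8498, 8214, 8155, 8280 and 8807 normalized counts against 7413, 7935, 7815, 7616 and 7778, with no overlap and a log2 difference of 0.12 (SE 0.0666). Choroid plexus and ependymal markers had 7 of 12 members tested, a median of 0.05 and a summed level of 319 to 489 with fluoxetine and 287 to 375 with vehicle. Thalamic markers had a median of 0.04 over 9, and Calb2, also abundant in the olfactory bulb, was at 1.21.

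The same drug contrast was set beside that of WT females and of HT males, which share no library with the WT male comparison. Those 2 comparisons gave 3272 (19.8%) and 2222 (13.4%) called genes in the same fit, and 111 and 29 with the bulb level as a covariate. Bulb markers differed more there, with a list median of 4.35 in WT females and 3.18 in HT males, and mt-Atp6 and Gm9794, the genes cited in choosing the libraries, were far lower in those fluoxetine groups. mt-Atp6 averaged 14771 ± 2150 normalized counts in WT fluoxetine females (SD, n = 4) and 12392 ± 2248 in HT fluoxetine males (n = 5), against 46713 ± 4642 in WT fluoxetine males (n = 5). Gm9794 was at 0 in all 4 WT fluoxetine females and averaged 126 ± 15.3 in WT fluoxetine males.

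For most genes the difference between these effects and the WT male effect was not resolved. The test of the difference called 14 of 16546 genes against WT females (0.0846%), 10 with the higher value in WT males and 4 with the lower. Against HT males it called 11 (0.0665%), 10 higher and 1 lower. Of these 11, only 1 was protein-coding by annotation and not named as a pseudogene, and that was mt-Atp6. Against WT females such genes numbered 9 of the 14. Both tests use the same 10 WT male libraries, so nothing is read from the genes they share. mt-Atp6, Gm9794, Gm10221, Gm28037, Ftl1-ps1 and Rps2-ps10 were called against each. Gm28037 was called by limma but not by edgeR: its adjusted p was 0.173 by edgeR against WT females, where DESeq2 gave none, and 0.681 by edgeR and 0.76 by DESeq2 against HT males. Because mt-Atp6 and Gm9794 chose the libraries, nothing is read from their calls.

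Against WT females, protein-coding genes were among those called. Rpl24, a large-subunit ribosomal protein, had a log2 difference of -0.04 (SE 0.0553) in WT males and -0.65 (SE 0.0587) in WT females, and the difference between them was 0.61 (limma adjusted p = 4.1e-06). Rps23, of the small subunit, went the other way, at -0.08 and 0.41 (difference -0.48, limma adjusted p = 0.00249). Wdr89 was at -0.02 and -0.85, Hacd3 (an enzyme of very long fatty acid elongation) at 0.08 and -0.27, and Nanos1 (an RNA-binding translational repressor) at 0.06 and -0.39. Taok2 (a kinase of dendrite growth) was at -0.02 and 0.30, Dynlt1f (a dynein light chain copy) at -0.14 and 0.84, and Sar1a (a GTPase of ER export) at 0.01 and -0.30. DESeq2 gave no adjusted p for Wdr89 or Dynlt1f, which edgeR called (edgeR adjusted p = 0.00455 and 0.0227). In all 8 the WT male value lay nearer to 0 than the female value. These genes were picked by that difference, and 0 genes were called in WT males, so nothing is read from this pattern. Without WT fluoxetine male 2, which had the highest bulb level, 39 genes were called against WT females, without vehicle male 5 the number was 22, and without fluoxetine male 4 it was 9. Against HT males, 7 genes were called without vehicle male 5.

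Directions were compared over all genes as a description. Of the 800 WT male genes under an unadjusted p of 0.05, 658 (82.2%) had the same direction in WT females and 712 (89.0%) in HT males. Over all 16546 genes the shares were 66.3% and 69.5%. With the bulb level as a covariate in every comparison, they were 66.6% and 69.2% of 503 genes, and 53.8% and 54.3% of all genes, where 1 covariate slope per gene served all comparisons. Genes are not independent replicates, and bulb markers were higher with fluoxetine in all 3 comparisons.

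The 10 genes above were read in those other libraries, where 19.8% and 13.4% of all genes passed the test. The vehicle groups there averaged 46863 (WT females) and 46278 (HT males) normalized counts of mt-Atp6, far above their fluoxetine groups. Whatever goes with the low mt-Atp6 and Gm9794 cannot be told apart there from the drug. Its part in the values below was not tested. Atp5e differed by -0.50 in WT females and -0.47 in HT males (limma adjusted p = 2.32e-05 and 1.83e-05), and Cops9 by -0.31 and -0.33 (0.00819 and 0.00676). Cpeb1 differed by -0.28 and -0.27, called in both (limma adjusted p = 0.0229 and 0.0275). Rpl14-ps1 was also called in both (limma adjusted p = 0.00448 and 0.00876), and Nptx2 in WT females at 0.31 (0.0325) but not in HT males at 0.04, 2 values whose difference was not tested. The test of the difference from WT males called none of these 5 genes. With the bulb covariate Atp5e was called in both, at -0.37 and -0.39 (limma adjusted p = 0.0143 and 0.00165), and the other 4 in neither. Their limma adjusted p with the covariate was 0.524 and 0.193 for Cops9, 0.721 and 0.434 for Cpeb1, 0.0746 and 0.0907 for Rpl14-ps1, and 0.238 and 0.898 for Nptx2. Nr1d1 was at -0.18 and -0.21 and passed in neither, AC102496.1 at 0.02 and -0.22, and Rpl17 at 0.04 and -0.10. Tef was called in both at -0.25 and -0.17, and Slc29a4 in both at 0.46 and 0.36. With the covariate neither Tef (-0.10 and -0.07) nor Slc29a4 (0.34 and 0.29) was called.

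Lithium in WT males used the same 5 vehicle libraries, so its values stand beside those of fluoxetine without an overlap or a correlation. The lithium comparison called 3 genes with limma, 3 with edgeR and 20 with DESeq2, and limma called 7 with the bulb and striatal covariates and 1 without a filter on the mean. Nr1d1 was at -0.39 with lithium against -0.49 with fluoxetine, and Dbp at -0.26 against -0.27. Nptx2 was at 0.53 with lithium (limma adjusted p = 0.0364) against 0.36, and mt-Nd6 at -0.65 against -0.73. Cpeb1 was at -0.01 with lithium against -0.39, Cops9 at -0.04 against -0.29 and Atp5e at 0.05 against -0.25. The bulb list median was 0.01 with lithium against 2.19. Differences that share the vehicle libraries move together through them.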

How the data were processed

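Poly(A) RNA libraries were made with a stranded Illumina kit, per the labels' protocols. The submitters' processing notes name Salmon 0.11.2, DESeq2 1.19.11, R 3.6.0 and the GRCm38 build. The table deposited by the authors holds a normalized signal for every gene, which is a read count over the size factor of its library; such values are called normalized counts here. All values of each library (100%) were whole multiples of a single step (tolerance 0.01), and dividing by that step returned the reads. Of 18088 genes, 18077 had a matching symbol. Gene positions are those of GENCODE on GRCm38, and promoter windows are placed by RefSeq starts.

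Log2(normalized count + 1) values were fitted with limma 3.58.1 in R 4.3.3, using 12 group means, all 59 libraries and an empirical Bayes prior with a trend and robust estimation. The 16546 genes whose mean reached 10 entered the test, which was two-sided with Benjamini-Hochberg adjustment, and a gene with an adjusted p under 0.05 is said to be called. The log scale with a pseudocount of 1 understates differences of low genes. Alternatives comprised edgeR 4.0.16 and DESeq2 1.42.0 on the returned reads, quantile normalization, pseudocounts of 0.5 and 5, no filter or a mean of 200, no trend, only the groups compared, replicate blocks, bulb and striatal covariates, and fewer libraries. A marker level is the mean of the members' standardized log2 values. The script was tested on simulated data.

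With fewer than 5 called genes, the 10 with the smallest p are named. Also named are the 3 members with the smallest p of each of 36 gene lists, every serotonin receptor and monoamine gene, and Myt1l. The values of 3 genes under this rule are not reported here. Further genes were named after their values were seen. The libraries and lists were chosen with earlier results of these data known, and lists are described by counts and medians without a test.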

Additional observations from a re-analysis of the deposited data

Results flagged for a closer look

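The test of the difference in the fluoxetine effect called 14 genes between WT males and WT females and 11 between WT males and HT males. The bulb marker medians of the compared effects were 2.19 in WT males, 4.35 in WT females and 3.18 in HT males, and their part in these calls was not tested beyond the covariate fits, which called 11 and 12.

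Of 253 groups of 5 libraries examined for the named genes, 10 (3.95%) held 1 library far from the others, its gap to the nearest being over 0.71 of the group's range, and chance flags about 1 in 20. In the vehicle group these were Adamts5 at 130 normalized counts in library 5 (next 77.0), Ccn2 at 774 (next 474) and Fdft1 at 2545 (next 2320) in library 3, Znrf3 at 453, the lowest, also in library 3, and Slc17a6 at 420, the lowest, in library 2. In the fluoxetine group they were Ctss at 997, the lowest, and Ddit3 at 342, the highest, in library 4, Dbp at 1339, the lowest, in library 2, and Tgfb3 at 431 and mt-Co2 at 62210, both lowest, in library 1. Vehicle libraries 3 and 5 were the 2 with high bulb markers.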

How the results depend on the processing

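The comparison of fluoxetine with vehicle called 0 genes under every alternative but 2: the fit to the 10 libraries alone called 3, and the same fit with the replicate number as a block called 2 (Rpl14-ps1 and mt-Nd6). Leaving out each library in turn gave 0 genes each time. With the replicate block over all 12 groups the count was 0. Deviations of same-numbered fluoxetine and vehicle libraries correlated across genes at -0.302 to 0.293, so the numbers were not taken to pair the pups. For the difference from WT females, 14 genes in the fit reported, DESeq2 called 82, the filter at a mean of 200 called 7, quantile normalization 23 and the replicate block 20, and leaving out 1 library gave 9 to 39. For the difference from HT males, 11 genes, the filter at 200 and the fit to the compared groups alone each called 5, the replicate block 11, and leaving out 1 library gave 7 to 13. The cause of these differences was not tested, except that the stricter filter tests fewer genes (11056). Of 127 named genes, 24 changed sign with the bulb covariate, 22 with the bulb and striatal covariates and 7 without the 5 libraries highest in bulb genes, a choice made after seeing the data. Among the 49 under an unadjusted p of 0.05, Dlx6os1 changed sign with the bulb covariate (-0.03) and with the bulb and striatal covariates (-0.02), and Myh11 (0.31) went to -0.05 without those 5 libraries. The median SE of the log2 difference was 0.254 over genes with a mean below 100 normalized counts and 0.0807 over those at 1000 or more.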
